A study of Mus musculus with 18 samples.

Results

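Diacylglycerol kinases are the enzymes that add a phosphate to the membrane lipid diacylglycerol and so turn it into phosphatidic acid. The 8 genes described here, Dgka, Dgkg, Dgkd, Dgkh, Dgke, Dgki, Dgkz and Dgkq, were taken by name from a table of read counts for 26327 gene symbols. They were chosen by name with their measured counts and the results of all comparisons known, so their levels and fold changes are given as a description, with no p-value, and the calls that a fit over all genes made for them support nothing here. Of the remaining family members in the table, Dgkb had 8 counts in all brush libraries, 8 in EpCAM+ libraries and 0 in CD45+ libraries, and Dgkk had 11, 1 and 1, so neither reached a level that could be compared.

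The cells came from the trachea of untreated ChAT-eGFP mice, a line on a B6 background whose transgene, Tg(RP23-268L19-EGFP)2Mik, drives eGFP from the choline acetyltransferase locus. All 3 groups of cells came from this line. Brush cells (7 libraries) were sorted by eGFP among the EpCAM-bearing cells that lacked CD45. EpCAM+ epithelial cells (7 libraries) were sorted by EpCAM and the lack of CD45 alone, and hematopoietic cells (4 libraries) by CD45. The EpCAM+ gate did not exclude eGFP+ cells, so brush cells may be among the EpCAM+ cells. Cell suspensions were made with dispase followed by papain, and propidium iodide served to leave out dead cells. The labels give neither the age or sex of the mice nor whether the libraries of a group came from separate animals. The p-values therefore measure only the spread between these libraries, which may be technical in part. In sorted bulk samples, fewer cells that express a gene and less of its RNA per cell cannot be told apart.

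Diacylglycerol is made at the plasma membrane when phospholipase C cleaves phosphatidylinositol bisphosphate, which also releases inositol trisphosphate and calcium. It recruits effectors such as protein kinase C, the RasGRP exchange factors and the chimaerins, and diacylglycerol kinases end that signal while their product feeds the remaking of phosphoinositides. Brush cells, the tuft cells of the airway, are sparse epithelial chemosensors that use phospholipase C in a taste-like receptor cascade. The family falls into types by domain structure. Type I enzymes (Dgka, Dgkg) carry calcium-binding EF hands, type II enzymes (Dgkd, Dgkh) a pleckstrin homology domain, and type IV enzymes (Dgki, Dgkz) ankyrin repeats. Dgke, the type III enzyme, is the smallest and prefers diacylglycerol with an arachidonoyl chain, and Dgkq is the type V enzyme.

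All members share a catalytic domain with a glycine-rich loop that binds ATP. The coding sequence around this loop is shown for the 4 genes that ranked 1 to 3 per unit length in any group, to show how their bases differ at a site that they all share. Each line holds 42 bases of a GENCODE vM21 transcript of GRCm38, sense strand, 5′ to 3′, and the capitals mark the codons of the loop. The stretch starts at coding base 1267 in Dgki, 1624 in Dgkz, 1267 in Dgka and 1117 in Dgkd.
Dgki: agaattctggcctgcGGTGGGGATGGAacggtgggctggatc
Dgkz: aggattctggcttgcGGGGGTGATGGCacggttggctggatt
Dgka: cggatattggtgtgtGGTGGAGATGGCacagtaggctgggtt
Dgkd: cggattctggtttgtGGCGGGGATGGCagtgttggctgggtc
Dgki and Dgkz, the type IV pair, were identical at 35 of these 42 bases, against 29 of 42 for Dgki and Dgka. Identity did not follow type over the whole family. The type I pair, Dgka and Dgkg, shared 30 of 42 bases, while Dgka shared 37 with Dgkq, of type V. The type II pair, Dgkd and Dgkh, shared 34, as did Dgkd and Dgkq. Over their whole annotated transcripts, the 8 members shared no stretch of 50 bases with each other (0 of 6421 such stretches of Dgki, for example). Where members overlap genes on the opposite strand, reads could be assigned to either if counting ignored strand, and the strand setting is not given in the sources used here. The largest overlap is that of Dgkq with Tmem175 on the opposite strand (2090 exonic bases). Dgkh shares 819 bases with Gm48998 on its own strand, where strand cannot tell their reads apart. Dgki overlaps no other gene's exons.

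The brush libraries held 838328 to 6031711 counts, the EpCAM+ libraries 2442601 to 6087184 and the CD45+ libraries 371652 to 7438791. Means are over 7 brush, 7 EpCAM+ and 4 CD45+ libraries throughout. Levels are CPM, counts scaled to a common depth by the TMM library size, and 1 count was worth between 0.119 and 2.87 CPM. The 6 brush markers used to check the sort (Trpm5, Gnat3, Pou2f3, Dclk1, Avil, Chat) summed to 8340 to 9773 CPM in brush libraries, 8.07 to 33.7 CPM in EpCAM+ libraries and 0 to 57.8 CPM in CD45+ libraries. The 5 pan-leukocyte markers summed to 13.6 to 36.6 CPM in brush libraries, 0 to 3.21 CPM in EpCAM+ libraries and 4989 to 5913 CPM in CD45+ libraries. Brush replicate 4, EpCAM+ replicate 5 and CD45+ replicate 1 stood apart from their groups, with median Spearman correlations to their own group of 0.849, 0.810 and 0.759, against 0.895 to 0.951 for the other libraries. Results that turn on one of them are given without it.

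Each of the diacylglycerol kinase genes had counts in all groups, but Dgki led in every brush library and in no library of the other cells. Dgki, a type IV enzyme best known from neurons, was abundant in every brush library and close to the limit of counting elsewhere. Dgka, the calcium-dependent type I enzyme, led in all EpCAM+ libraries and in 3 of 4 CD45+ libraries and was lower in all brush libraries. Dgkg was found in most brush and CD45+ libraries and was nearly absent from EpCAM+ cells. Dgkh was highest on average in EpCAM+ cells, whose libraries overlapped the brush libraries. Dgkd and Dgkz were highest on average in CD45+ cells, whose libraries overlapped the EpCAM+ libraries. For Dgke and Dgkq all groups overlapped.

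**Figure D1:**
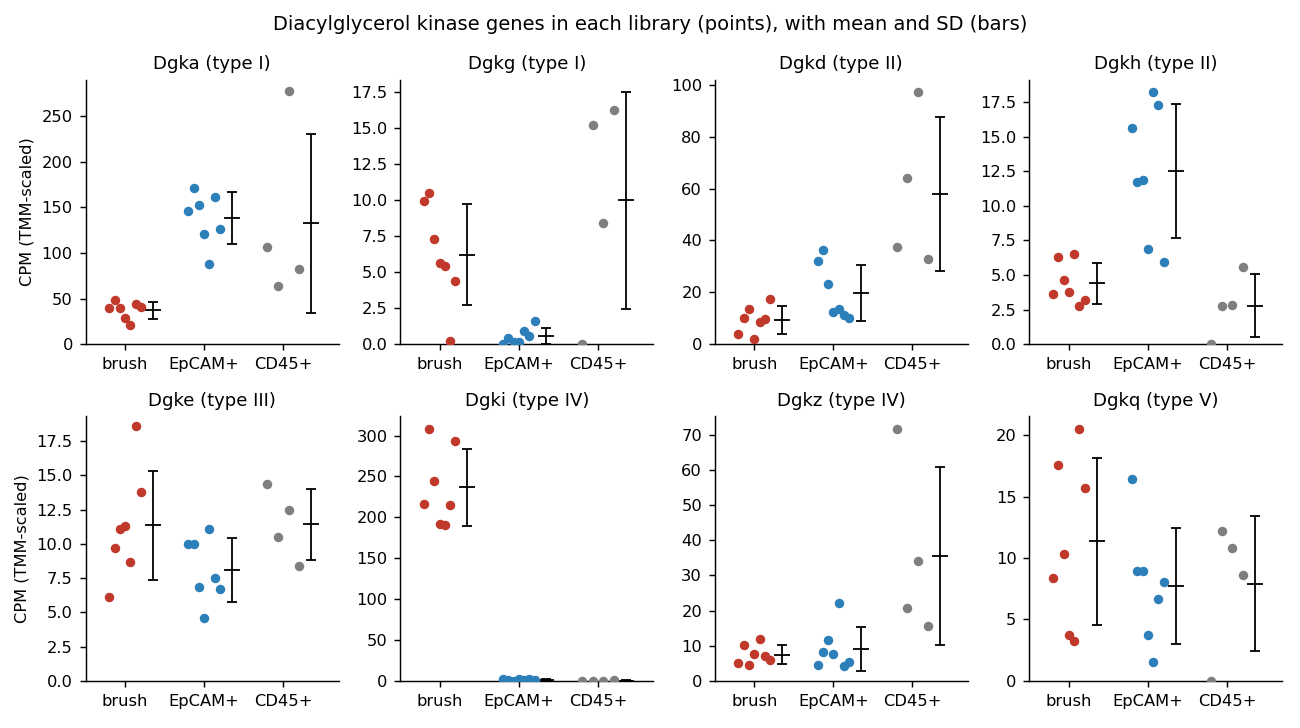
CPM (TMM-scaled, linear axis starting at 0, different scale in each panel) of the 8 genes; each point is a library of brush, EpCAM+ or CD45+ cells, and the bar beside each group gives the mean and SD. Dgki reads 191 to 308 CPM in the 7 brush libraries, above all other libraries, while all 7 brush libraries lie below all others for Dgka.

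Dgki, the type IV enzyme encoded on the minus strand at chr6:36846022-37300184 (GRCm38), had 216, 308, 244, 192, 191, 215 and 293 CPM in brush replicates 1 to 7. In EpCAM+ replicates 1 to 7 it had 2.00, 1.49, 0.186, 1.89, 0.926, 1.73 and 0.809 CPM, and in CD45+ replicates 1 to 4 it had 0, 0.249, 0.219 and 0.762 CPM. Every brush library lay far above every other library, and brush replicate 4, the shallowest, lay inside the range of the others. The mean was 237 ± 47.1 CPM in brush libraries (SD, n = 7), 1.29 ± 0.669 CPM in EpCAM+ libraries (SD, n = 7) and 0.308 ± 0.323 CPM in CD45+ libraries (SD, n = 4). The summed counts were 7531 in brush cells, 39 in EpCAM+ cells and 6 in CD45+ cells. The brush to EpCAM+ ratio of these sums was 198, with an exact 95% counting interval of 145 to 279, and the brush to CD45+ ratio was 739, with an interval of 339 to 2010. These intervals cover counting error only, since reads without molecular identifiers are not independent molecules. The log2 fold change was 7.51 ± 0.40 (SE) against EpCAM+ cells, rank 118 of 13418 genes tested, and 9.25 ± 0.60 against CD45+ cells, rank 76.

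The low Dgki level in EpCAM+ cells can be set beside their brush markers. Dgki in EpCAM+ cells was 0.544% of its brush mean, and the sum of the 6 brush markers was 0.165% of its brush mean. For the markers one by one, this share ran from 0.0445% (Trpm5) to 0.998% (Pou2f3). In CD45+ cells Dgki was 0.130% and the marker sum 0.336% of the brush mean, but Chat alone carried that sum, at 11.9% of its own brush mean. The 5 markers without Chat summed to 0.0219% of their brush mean in CD45+ cells and 0.156% in EpCAM+ cells. Whether brush cells in the other gates account for these counts was not tested. EpCAM+ cells stood above CD45+ cells by 1.74 ± 0.59 (log2, SE), on 39 and 6 counts, and the call of that difference was lost without CD45+ replicate 2 (1.6), without CD45+ replicate 3 (1.42), with RSEM expected counts (1.80) and with a replicate block (1.67).

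Dgki passed the filter on low counts through its 7 brush libraries alone, since 0 EpCAM+ and 0 CD45+ libraries reached the required 2.43 CPM. A gene that passes in this way had to differ between the groups. Dgkg passed through 6 brush and 3 CD45+ libraries. All 8 members passed.

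Dgkz (chr2:91932824-91975864, minus strand), the other type IV enzyme, is known to restrain diacylglycerol signalling in T cells. It had 5.08, 10.1, 4.61, 7.54, 12, 7.04 and 5.83 CPM in brush replicates 1 to 7, against 4.41, 8.29, 11.5, 7.55, 22.2, 4.32 and 5.39 CPM in EpCAM+ replicates 1 to 7. In CD45+ replicates 1 to 4 it had 71.8, 20.7, 34.1 and 15.7 CPM. Brush and EpCAM+ libraries overlapped, as did EpCAM+ and CD45+ libraries, and all 7 brush libraries lay below all 4 CD45+ libraries. The mean was 7.46 ± 2.71 CPM in brush libraries, 9.10 ± 6.32 CPM in EpCAM+ libraries and 35.6 ± 25.4 CPM in CD45+ libraries (SD), and without CD45+ replicate 1 the CD45+ mean was 23.5 ± 9.47 CPM. The log2 fold change was −0.31 ± 0.41 (SE) for brush against EpCAM+ cells, −2.17 ± 0.47 for brush against CD45+ cells and −1.86 ± 0.46 for EpCAM+ against CD45+ cells. Without EpCAM+ replicate 5 the first of these was 0.06, so brush and EpCAM+ cells have no stable order for Dgkz.

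Dgka (chr10:128720134-128744855, minus strand), a type I enzyme also known from T cells, had 39.7, 48.2, 39.3, 28.3, 21.2, 44.2 and 40.7 CPM in brush replicates 1 to 7. It had 146, 171, 152, 121, 87.6, 161 and 126 CPM in EpCAM+ replicates 1 to 7, and 106, 64.1, 277 and 82.0 CPM in CD45+ replicates 1 to 4. All brush libraries lay below all libraries of the other groups, while EpCAM+ and CD45+ libraries overlapped. The mean was 37.4 ± 9.38 CPM in brush libraries, 138 ± 28.4 CPM in EpCAM+ libraries and 132 ± 98.1 CPM in CD45+ libraries (SD). The CD45+ mean rests on replicate 3, and was 84.1 ± 21.2 CPM without it. The log2 fold change was −1.87 ± 0.31 (SE) for brush against EpCAM+ cells and −1.82 ± 0.34 for brush against CD45+ cells, which was −1.12 without CD45+ replicate 3. EpCAM+ and CD45+ cells differed by 0.05 ± 0.35, whose sign changed with the library left out.

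The markers of leukocyte types differed widely among the CD45+ libraries. The 6 markers of T and NK cells (Cd3d, Cd3e, Cd3g, Lck, Cd247, Nkg7) summed to 1379, 76.0, 880 and 169.9 CPM in CD45+ replicates 1 to 4. The 6 markers of macrophages and dendritic cells summed to 5700, 18160, 4844 and 19260 CPM in the same libraries, and the 4 B cell markers to 873, 1011, 1427 and 286.5 CPM. Replicates 1 and 3, with the highest T and NK sums, also had the highest Dgka and Dgkz. In brush cells the T and NK sum was 0.714 to 4.90 CPM with Cd3g and Nkg7 at 0, and in EpCAM+ cells 0.808 to 6.74 CPM with Nkg7 at 0. The part of these cell types in the levels of Dgka and Dgkz was not tested.

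Dgkg (chr16:22468461-22657221, minus strand), the other type I enzyme, had 9.97, 10.5, 7.31, 5.66, 5.44, 0.213 and 4.4 CPM in brush replicates 1 to 7. It had 0, 0.425, 0.186, 0.135, 0.926, 0.577 and 1.62 CPM in EpCAM+ replicates 1 to 7, and 0, 15.2, 8.43 and 16.3 CPM in CD45+ replicates 1 to 4. Brush replicate 6 held a single count of Dgkg and fell among the EpCAM+ libraries, and the other 6 brush libraries lay above all EpCAM+ libraries. CD45+ replicate 1, the shallowest library, where a single count is worth 2.87 CPM, had none. The mean was 6.22 ± 3.52 CPM in brush libraries, 0.552 ± 0.563 CPM in EpCAM+ libraries and 9.97 ± 7.50 CPM in CD45+ libraries (SD). Without CD45+ replicate 1 the CD45+ mean was 13.3 ± 4.25 CPM. The log2 fold change was 3.50 ± 0.71 (SE) for brush against EpCAM+ cells, −0.81 ± 0.67 for brush against CD45+ cells and −4.31 ± 0.76 for EpCAM+ against CD45+ cells.

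The type II enzymes each had their highest level outside the brush cells. Dgkd (chr1:87853287-87945180, plus strand) had 3.99, 10.1, 13.5, 1.89, 8.71, 9.81 and 17.6 CPM in brush replicates 1 to 7, against 32.1, 36.3, 23.4, 12.3, 13.6, 11.2 and 10.2 CPM in EpCAM+ replicates 1 to 7. In CD45+ replicates 1 to 4 Dgkd had 37.4, 64.1, 97.2 and 33.0 CPM. Brush and EpCAM+ libraries overlapped, as did EpCAM+ and CD45+ libraries, and all brush libraries lay below all CD45+ libraries. The mean was 9.38 ± 5.35 CPM in brush libraries, 19.9 ± 10.8 CPM in EpCAM+ libraries and 57.9 ± 29.6 CPM in CD45+ libraries (SD). The log2 fold change of Dgkd was −0.99 ± 0.39 (SE) for brush against EpCAM+ cells, −2.57 ± 0.44 for brush against CD45+ cells and −1.57 ± 0.43 for EpCAM+ against CD45+ cells. The first of these did not keep its call in 12 of 27 alternative settings (range −1.24 to −0.78), and the last lost it without CD45+ replicate 3 (−1.15).

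Dgkh (chr14:78558750-78732776, minus strand) had 3.63, 6.28, 4.61, 3.77, 6.53, 2.77 and 3.21 CPM in brush replicates 1 to 7, against 15.6, 11.7, 11.9, 6.87, 18.2, 17.3 and 5.93 CPM in EpCAM+ replicates 1 to 7. It had 0, 2.74, 2.85 and 5.59 CPM in CD45+ replicates 1 to 4. All EpCAM+ libraries lay above all CD45+ libraries, as they did for 15.9% of all genes tested. In CD45+ replicate 1, which had 0, a single count is worth 2.87 CPM. Of the brush libraries, 5 of 7 lay below all EpCAM+ libraries. The mean was 4.4 ± 1.48 CPM in brush libraries, 12.5 ± 4.85 CPM in EpCAM+ libraries and 2.79 ± 2.28 CPM in CD45+ libraries (SD). The log2 fold change of Dgkh was −1.50 ± 0.38 (SE) for brush against EpCAM+ cells, 0.38 ± 0.47 for brush against CD45+ cells and 1.88 ± 0.48 for EpCAM+ against CD45+ cells.

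Dgke (chr11:89035179-89066850, minus strand), the type III enzyme, averaged 11.3 ± 3.97 CPM in brush libraries (range 6.16 to 18.6), 8.12 ± 2.32 CPM in EpCAM+ libraries (range 4.58 to 11.1) and 11.4 ± 2.58 CPM in CD45+ libraries (range 8.38 to 14.4). Its log2 fold change was 0.50 ± 0.30 (SE) for brush against EpCAM+ cells, 0.04 ± 0.36 for brush against CD45+ cells and −0.45 ± 0.36 for EpCAM+ against CD45+ cells. Dgkq (chr5:108646693-108669672, minus strand), the type V enzyme, averaged 11.4 ± 6.77 CPM in brush libraries (range 3.27 to 20.5), 7.76 ± 4.72 CPM in EpCAM+ libraries (range 1.54 to 16.4) and 7.92 ± 5.48 CPM in CD45+ libraries (range 0 to 12.2). Its log2 fold change was 0.63 ± 0.47 (SE) for brush against EpCAM+ cells, 0.38 ± 0.56 for brush against CD45+ cells and −0.24 ± 0.55 for EpCAM+ against CD45+ cells. The groups overlapped for both genes, and their order does not hold beyond the spread between libraries.

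Ordered by mean CPM, Dgki and Dgkq were highest in brush cells, Dgka and Dgkh in EpCAM+ cells, and Dgkg, Dgkd, Dgke and Dgkz in CD45+ cells. For Dgke this turned on CD45+ replicate 1, without which the CD45+ mean was 10.4 CPM, below the brush mean of 11.3 CPM. Neighbours in these orders whose libraries did not overlap were brush and EpCAM+ cells for Dgki, brush and CD45+ cells for Dgka, and no others. Over all genes tested, libraries did not overlap for 9.5% higher and 10.7% lower in brush against EpCAM+ cells. These shares were 16.8% and 13.8% in brush against CD45+ cells, and 15.9% and 11.4% in EpCAM+ against CD45+ cells.

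**Figure D2:**
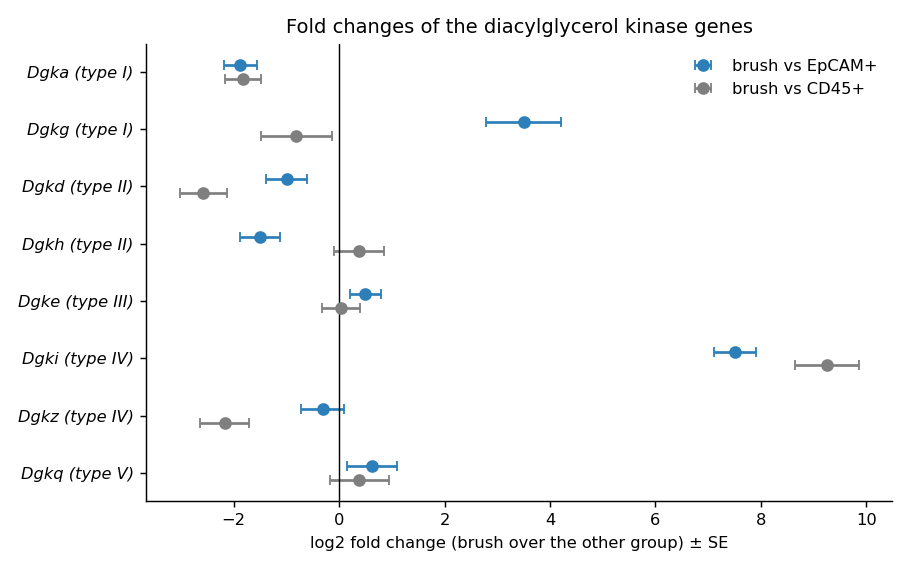
Log2 fold change (horizontal axis) of brush over EpCAM+ cells and of brush over CD45+ cells for each gene, with bars for the SE. Dgki stands at 7.51 and 9.25, and the other genes lie between −2.57 and 3.50; both comparisons share the brush libraries.

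A gene was called different at a Benjamini-Hochberg adjusted p below 0.05 in edgeR's quasi-likelihood test over 13418 genes. In brush against EpCAM+ cells, 2 members were called higher (Dgki, Dgkg) and 3 lower (Dgka, Dgkd, Dgkh), where 18.3% of all genes tested were called higher and 22.0% lower. In brush against CD45+ cells, 1 member was called higher (Dgki) and 3 lower (Dgka, Dgkd, Dgkz), where 23.4% of all genes were called higher and 22.4% lower. In EpCAM+ against CD45+ cells, 2 members were called higher (Dgkh, Dgki) and 3 lower (Dgkg, Dgkd, Dgkz), where 22.5% of all genes were called higher and 18.1% lower. The members' median log2 fold change was 0.10, −0.38 and −0.34 in these 3 comparisons, beside −0.06, 0.05 and 0.08 over all genes tested. The comparisons share libraries and the members were listed with them in view, so nothing is read from these counts.

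Levels of different genes were compared per length, in the TPM values that the authors deposited, which scale RSEM expected counts by transcript length and depth. These expected counts held unlike parts of the deposited counts of each gene. In brush replicate 7, Dgkh had 27 counts and 7 expected counts, Dgki 2462 and 1694, and Dgke 116 and 114. The shares and orders between genes given here depend on these estimates. The 8 members summed to 27.9 to 160.7 TPM in brush libraries (median 89.6), 19.4 to 88.7 TPM in EpCAM+ libraries (median 53.7) and 38.1 to 140.7 TPM in CD45+ libraries (median 50.8), so the totals overlapped. Dgki took 62.4 ± 7.48% of the family's TPM in brush cells (SD, n = 7; range 52.2 to 70.3%), 0.327 ± 0.244% in EpCAM+ cells and 0.0918 ± 0.184% in CD45+ cells. Dgka took 14.0 ± 2.75% in brush cells, 73.0 ± 11.7% in EpCAM+ cells and 44.5 ± 16.5% in CD45+ cells. Dgkd took 3.50 ± 2.17% in brush cells, 7.66 ± 3.17% in EpCAM+ cells and 25.0 ± 12.4% in CD45+ cells.

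**Figure D3:**
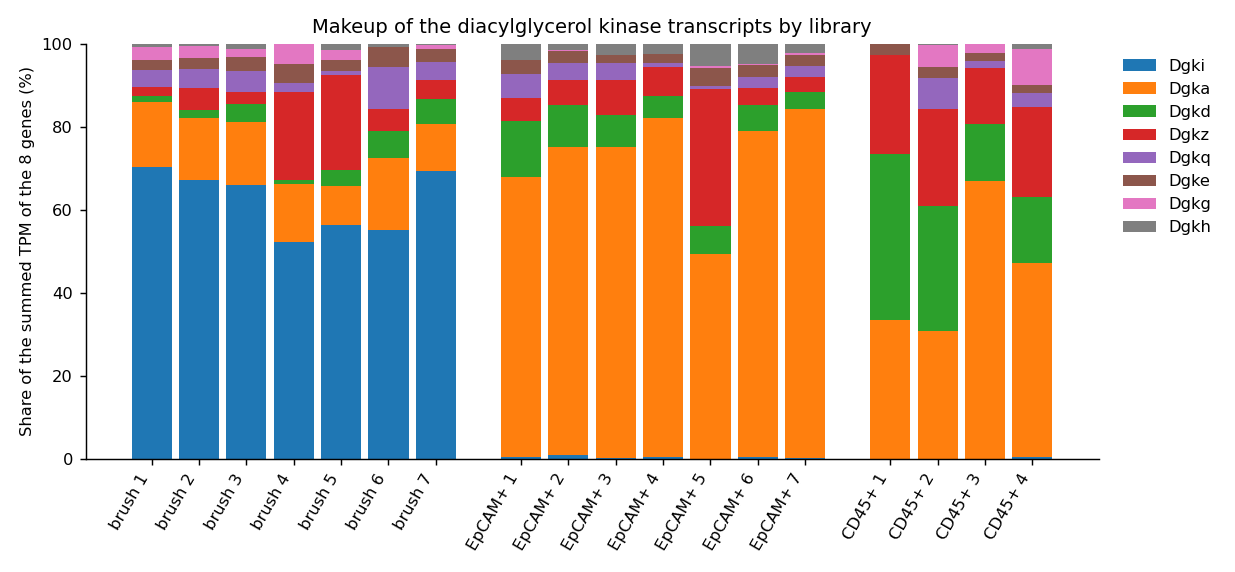
Share of the summed TPM of the 8 genes (vertical axis, percent) in each library, stacked by gene, with brush, EpCAM+ and CD45+ libraries from left to right. Dgki fills 52.2 to 70.3% of each brush bar, and Dgka 49.4 to 84.1% of each EpCAM+ bar.

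Within brush cells the order by mean TPM was Dgki (60.5 ± 31.8), Dgka (13.4 ± 6.64), Dgkz (6.11 ± 3.37), Dgkq (4.84 ± 4.07), Dgkd (3.79 ± 3.48), Dgke (3.13 ± 1.74), Dgkg (1.77 ± 1.13) and Dgkh (0.60 ± 0.331). Dgki exceeded Dgka in 7 of 7 brush libraries. From Dgka down to Dgke each gene exceeded the next in 4 or 5 of 7, Dgka exceeding Dgkz in 5, so these neighbours have no firm order. Dgkz took 21.1% and 23.1% of the family's TPM in brush replicates 4 and 5, on 3 and 19 RSEM expected counts. There RSEM gave it its shortest lengths among the brush libraries, 843 and 1076 bases. The mean share of Dgkz in brush cells was 9.22% by TPM and 2.41% by CPM. In EpCAM+ cells Dgka (40.7 ± 18 TPM) exceeded the next gene, Dgkd (4.70 ± 3.68 TPM), in 7 of 7 libraries. Dgki (0.216 ± 0.223 TPM) and Dgkg (0.0871 ± 0.0743 TPM) came last there. In CD45+ cells Dgka (36.2 ± 38.7 TPM), Dgkd (15.2 ± 6.37 TPM) and Dgkz (12.8 ± 4.4 TPM) came first and overlapped. CD45+ replicate 1 was led by Dgkd, with 40.1% of its family TPM.

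The authors' transcript-level estimates give a readout that the choice of genes did not use, the abundance-weighted transcript length of each gene in each library. A difference in this length means a different mix of transcripts. Groups were compared for genes with more than 1 transcript in those estimates, where at least 3 libraries each had 10 or more estimated counts. This allowed 13 comparisons over Dgkg, Dgkd, Dgke, Dgkz and Dgkq. Dgka and Dgkh were left out, since the estimates hold 1 transcript of each and their length cannot vary. GENCODE vM21 lists 3 transcripts of Dgka and 6 of Dgkh, so their mix could not be seen here. In an exact two-sided permutation test, none passed after adjustment over the 13. With so few libraries, 10 of the 13 could not have passed alone, since the smallest p they allow exceeds 0.05 after this adjustment, so the absence of a call says little. The smallest p was for Dgke, with 4806 ± 691 bases in EpCAM+ cells (SD, n = 7) and 6041 ± 1047 bases in CD45+ cells (SD, n = 3; exact permutation p = 0.05, adjusted p = 0.650). Brush cells had 4886 ± 215 bases for Dgke (SD, n = 6), with p = 0.119 against CD45+ cells by the same exact permutation test (adjusted p = 0.774). Dgki had 3351 to 3640 bases in 6 brush libraries and 4377 bases in brush replicate 4, and too few counts elsewhere for a comparison.

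The genes whose pattern was most like that of Dgki over the 18 libraries were Sh2d7, 4930539E08Rik, Avil, Ano7 and Nfasc, with Pearson correlations of log2(CPM + 1) of 0.995, 0.993, 0.993, 0.992 and 0.992. Avil encodes advillin, an actin-binding protein of brush cells, and is one of the 6 brush markers. For Dgka they were Gramd3 (0.948), Fam53b (0.917), Emb (0.896), Ikbke (0.892) and Uhrf1bp1l (0.891). These correlations describe the steps between the groups, which all such genes share, more than variation among libraries of 1 group.

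The genes of diacylglycerol supply, effectors and use differed between the groups in a gene-by-gene way. Of 74 genes in 5 lists, 69 could be tested with the same edgeR quasi-likelihood test. In brush against EpCAM+ cells 20 were higher (29.0%) and 21 lower (30.4%), beside 18.3% and 22.0% of all genes tested. In brush against CD45+ cells 18 were higher (26.1%) and 25 lower (36.2%), beside 23.4% and 22.4% of all genes. In EpCAM+ against CD45+ cells 19 were higher (27.5%) and 27 lower (39.1%), beside 22.5% and 18.1% of all genes. The count of each list is given with its share in percent, to be read against these shares of all genes. The lists were drawn up with earlier results in view, and the genes named below were picked from those called. Their adjusted p-values are therefore a description and lend no support of their own. Rasgrp3, for example, reached at most 0.427 CPM in brush and 1.67 CPM in EpCAM+ libraries, under the required 2.43 CPM. Only its CD45+ level let it be tested, so a difference was built in. Plcd1, Plce1 and Pitpnm3 are further examples, with brush medians of 0, 0.405 and 0.476 CPM. They could not have been tested without their EpCAM+ level, so their difference from EpCAM+ cells was likewise built in.

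**Figure D4:**
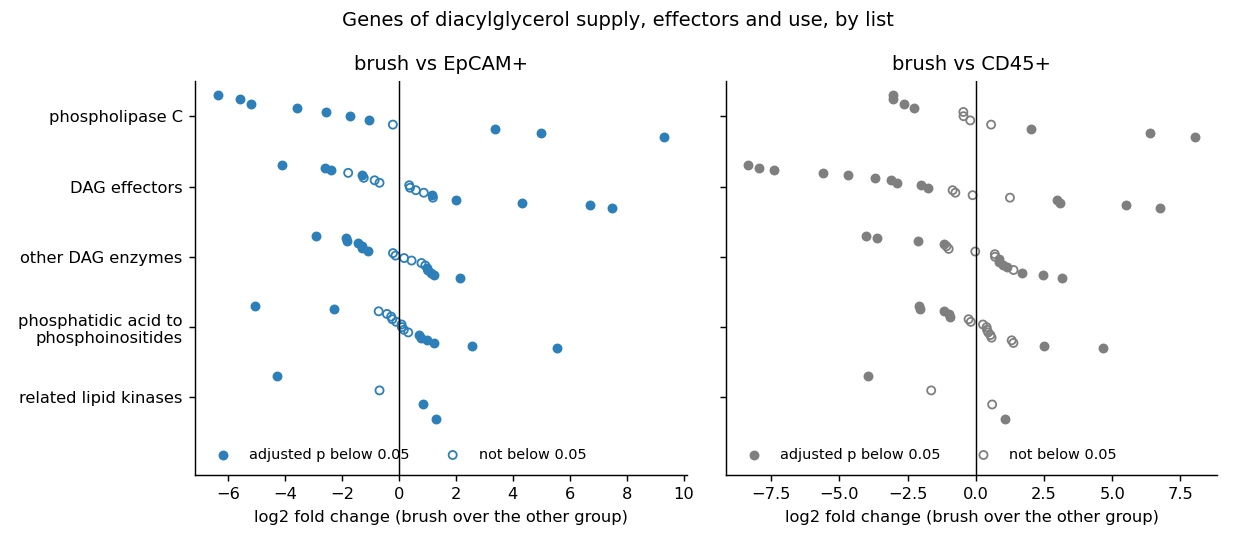
Log2 fold change (horizontal axis) of brush over EpCAM+ cells (left) and of brush over CD45+ cells (right) for the genes of 5 lists; filled points passed an adjusted p of 0.05 in edgeR's quasi-likelihood test and open points did not. Rasgrp2 (both panels) and Lpin3 (right panel) are left out, since a group had 0 counts; Plcb2 is the point at 9.32 on the left.

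Phospholipase C enzymes supply the substrate. Of 11 tested, 3 rose (27.3%) and 7 fell (63.6%) in brush against EpCAM+ cells, with a median log2 fold change of −1.71. In brush against CD45+ cells 3 rose (27.3%) and 4 fell (36.4%), with a median of −0.45. Plcb2, the phospholipase of taste signalling, had 191 ± 93.0 CPM in brush libraries, 0.309 ± 0.454 CPM in EpCAM+ libraries and 44.6 ± 22.6 CPM in CD45+ libraries (SD). Its log2 fold change was 9.32 ± 0.60 (SE) against EpCAM+ cells (edgeR adjusted p = 5.21e-11) and 2.04 ± 0.49 against CD45+ cells (edgeR adjusted p = 0.00135). The next largest differences from EpCAM+ cells were in Plcd1, which fell to 0.349 ± 0.712 CPM in brush libraries, against 32.1 ± 15.2 CPM in EpCAM+ libraries (−6.36 ± 0.79, edgeR adjusted p = 6.87e-07), and in Plce1, which fell to 0.493 ± 0.443 CPM in brush libraries, against 23.9 ± 6.58 CPM in EpCAM+ libraries (−5.57 ± 0.47, edgeR adjusted p = 2.64e-09). From CD45+ cells the largest were in Plch1 and Plch2. Plch1 had 723 counts in brush cells and 1 in CD45+ cells, a ratio of 426 with a counting interval of 76.2 to 16800. Plch2 had 65.4 ± 10.3 CPM in brush libraries and 0.600 ± 0.823 CPM in CD45+ libraries (6.39 ± 0.53, edgeR adjusted p = 1.25e-09).

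Of 19 genes listed as diacylglycerol effectors by gene family, 5 rose (26.3%) and 4 fell (21.1%) in brush against EpCAM+ cells. Not every member of these families need bind diacylglycerol. Their median log2 fold change was 0.36, or 0.38 without Rasgrp2, which had 0 counts in brush and 1 in EpCAM+ cells. In brush against CD45+ cells 4 rose (21.1%) and 11 fell (57.9%), with a median of −2.01. Chn2, which encodes the Rac-inactivating protein beta-chimaerin, had 221 ± 43.9 CPM in brush libraries, 1.96 ± 1.66 CPM in EpCAM+ libraries and 25.6 ± 11.4 CPM in CD45+ libraries (SD; 6.72 ± 0.53 against EpCAM+ cells, edgeR adjusted p = 9e-10). Its relative Chn1 had 22.1 ± 5.04 CPM in brush libraries and 1.04 ± 1.18 CPM in EpCAM+ libraries (4.32 ± 0.60, edgeR adjusted p = 3.48e-06). Prkcb, a protein kinase C, had 314 counts in brush cells and 1 in EpCAM+ cells, a ratio of 323 with a counting interval of 57.5 to 12800. Prkcb had 11.6 ± 6.10 CPM in brush libraries and 144 ± 24.5 CPM in CD45+ libraries. The pan-leukocyte markers summed to 13.6 to 36.6 CPM in brush libraries, most of it from Ptprc, with a mean of 21 CPM. Laptm5 averaged 4.16 CPM there, Coro1a 0.799 CPM, Cd53 0.596 CPM and Cd52 0.034 CPM. In CD45+ libraries each of these markers averaged 740 CPM or more. The part of leukocytes in the brush level of Prkcb was not tested.

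The genes of this effector list with the largest differences from CD45+ cells were Rasgrp2, Prkcq and Rasgrp3. They were also low in EpCAM+ cells, at 0.0385, 0.157 and 0.404 CPM on average. Rasgrp2 had 0 counts in brush cells and 387 in CD45+ cells, at least 219-fold lower in brush cells against a floor of 3 counts over the group. Prkcq, the protein kinase C of the T cell synapse, had 3 counts in brush cells and 1061 in CD45+ cells, a level 601-fold lower in brush cells with a counting interval of 205 to 2920. Rasgrp3 had 0.124 ± 0.169 CPM in brush libraries and 47.3 ± 32.2 CPM in CD45+ libraries (−7.96 ± 0.84, edgeR adjusted p = 4.42e-08).

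Among 18 other enzymes that make or use diacylglycerol, 4 rose (22.2%) and 7 fell (38.9%) in brush against EpCAM+ cells, with a median log2 fold change of 0.03. In brush against CD45+ cells 8 rose (44.4%) and 4 fell (22.2%), with a median of 0.77. Plpp3, a lipid phosphate phosphatase that turns phosphatidic acid into diacylglycerol, had 4.78 ± 2.30 CPM in brush libraries and 34.1 ± 12.8 CPM in EpCAM+ libraries (−2.90 ± 0.40, edgeR adjusted p = 3.29e-06). Mgll, which breaks down monoacylglycerol, had 56.8 ± 17.7 CPM in brush libraries and 12.9 ± 6.42 CPM in EpCAM+ libraries (2.13 ± 0.41, edgeR adjusted p = 0.000184). Sgms1, a sphingomyelin synthase that releases diacylglycerol, had 14.6 ± 4.58 CPM in brush libraries, 52.5 ± 8.70 CPM in EpCAM+ libraries and 183 ± 121 CPM in CD45+ libraries and fell in both comparisons. Against CD45+ cells, Dgat2, an enzyme of triglyceride synthesis, had 2.29 ± 1.42 CPM in brush libraries and 36.3 ± 21.1 CPM in CD45+ libraries (−4.04 ± 0.61, edgeR adjusted p = 6.52e-06). Lpin3, a phosphatidic acid phosphatase, had 446 counts in brush cells and 0 in CD45+ cells, at least 87.5-fold higher in brush cells against the same floor. With Rasgrp2 and Lpin3 at these bounds, the medians of their lists against CD45+ cells were unchanged at −2.01 and 0.77.

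Of 17 genes that lead from phosphatidic acid back to phosphoinositides, 6 rose (35.3%) and 2 fell (11.8%) in brush against EpCAM+ cells, with a median log2 fold change of 0.11. In brush against CD45+ cells 2 rose (11.8%) and 5 fell (29.4%), although the median was 0.39. Pitpnc1, a phosphatidylinositol transfer protein that also binds phosphatidic acid, had 319 ± 51.1 CPM in brush libraries, 53.7 ± 8.52 CPM in EpCAM+ libraries and 55.5 ± 19.7 CPM in CD45+ libraries (2.57 ± 0.24 against EpCAM+ cells, edgeR adjusted p = 1.39e-08, and 2.49 ± 0.31 against CD45+ cells, edgeR adjusted p = 3.8e-07). Pip5k1b, a kinase that makes phosphatidylinositol bisphosphate, had 71.1 ± 17.5 CPM in brush libraries, 1.51 ± 1.6 CPM in EpCAM+ libraries and 5.08 ± 6.20 CPM in CD45+ libraries (5.55 ± 0.54 against EpCAM+ cells, edgeR adjusted p = 2.07e-08, and 4.65 ± 0.70 against CD45+ cells, edgeR adjusted p = 7.74e-06). Pitpnm3 fell to 0.896 ± 1.31 CPM in brush libraries, against 18.9 ± 7.71 CPM in EpCAM+ libraries (−5.05 ± 0.64, edgeR adjusted p = 8.82e-07), and Pitpnm1 fell to 10.5 ± 4.07 CPM in brush libraries, against 44.6 ± 14.7 CPM in CD45+ libraries (−2.07 ± 0.31, edgeR adjusted p = 7.08e-06).

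Of 4 related lipid kinases tested, 2 rose (Agk, Sphk2) and 1 fell (Sphk1) in brush against EpCAM+ cells, and 1 rose (Sphk2) and 1 fell (Cerk) in brush against CD45+ cells, too few for a share to be read. Sphk1, a sphingosine kinase, had 1.37 ± 1.54 CPM in brush libraries and 27.7 ± 8.85 CPM in EpCAM+ libraries (−4.27 ± 0.66, edgeR adjusted p = 1.23e-05). Its relative Sphk2 had 29.5 ± 7.77 CPM in brush libraries, 11.8 ± 2.22 CPM in EpCAM+ libraries and 12.8 ± 7.37 CPM in CD45+ libraries and rose in both comparisons, by 1.31 ± 0.28 and 1.06 ± 0.34. Agk, an acylglycerol kinase of mitochondria, had 11.6 ± 3.19 CPM in brush libraries and 6.50 ± 1.59 CPM in EpCAM+ libraries (0.85 ± 0.30, edgeR adjusted p = 0.0263). Cerk, the ceramide kinase, had 2.44 ± 2.61 CPM in brush libraries and 42.1 ± 4.77 CPM in CD45+ libraries (−3.96 ± 0.51, edgeR adjusted p = 8.33e-07).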

How the data were processed

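The authors deposited raw read counts per gene symbol for all 18 libraries, which were used as deposited. They also deposited, per the file headers, an RSEM table for each library with expected counts, TPM and the mean transcript length of each of 47729 gene identifiers, of which 47224 matched a symbol and 24712 symbols were also in the count table. The build was mm10 and STAR 2.4.2a, RSEM 1.2.21, featureCounts, Picard and DESeq2 were used, per the submitters' processing notes. Annotation and strandedness were not stated. Coordinates and coding sequence are from GENCODE vM21 (GRCm38).

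Counts were tested with edgeR's quasi-likelihood test (edgeR 4.0.16, R 4.3.3) after TMM scaling and filterByExpr, set by group (13418 genes kept, 12909 removed), with group as the only term, all 18 libraries in 1 fit. The SE of a log2 fold change is its size divided by the square root of F. The steps were tested on simulated data. No pair of libraries agreed within sampling noise (lowest chi-square per degree of freedom 6.11). Library totals from 371652 to 7438791 counts set the precision.

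The members and the lists of related genes and markers were chosen with earlier results of these data known. In each list and brush comparison, the 3 called genes with the largest fold change were named, if they had at least 10 CPM on average in 1 of the groups and no overlap between libraries, and all called genes where 5 or fewer were called. Alternatives were DESeq2 1.42.0, other scaling, filters and groups in the fit, expected counts rounded to whole numbers, a replicate block and leaving out each library. Those without the 3 libraries that stand apart and without 5 ribosomal RNA genes were chosen after seeing the data.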

Additional observations from a re-analysis of the deposited data

Results flagged for a closer look

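Dgkz had 22.2 CPM in EpCAM+ replicate 5, above the 4.32 to 11.5 CPM of the other 6 EpCAM+ libraries, with a gap to the next library of 0.598 of the group's whole range. The same library had the highest club and goblet (121000 CPM), ciliated (1363 CPM) and fibroblast (519 CPM) marker sums of its group. Its basal marker sum (699 CPM) was the lowest. Of its diacylglycerol kinase TPM, 33.1% came from Dgkz. The part of this makeup in its Dgkz level was not tested. Of 24 pairs of a gene and a group tested for such a sample, 1 met the rule, where chance gives about 1 in 20 (1.2 of 24).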

How the results depend on the processing

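Across 27 alternatives, 619 of the members' fold changes kept their direction and call, 17 kept the direction and lost the call and 9 changed sign; the cause was not tested. The count of members higher in brush against EpCAM+ cells was 1 with only the 2 groups compared, since Dgkg fails that fit's filter. The count higher in EpCAM+ against CD45+ cells was 1 with only the 2 groups compared, with RSEM expected counts and with the replicate block, and 1 to 2 when libraries were left out in turn (1 without CD45+ replicate 2 or 3). Dgki fails the filter in the first of these and lost its call in the others. Dgki took 73.1% of the family in brush cells when CPM replaced TPM. Sign changes were in small differences without a call. For Dgkz in brush against EpCAM+ cells, leaving out libraries gave −0.46 to 0.060, and leaving out the 3 libraries that stand apart gave 0.072. For Dgke in brush against CD45+ cells it gave −0.12 to 0.18, and the replicate block gave −0.16. For Dgka in EpCAM+ against CD45+ cells it gave −0.18 to 0.77. The labels do not say whether equal replicate numbers mark a shared animal or sort, and the main fit did not use them as pairs. Deviations from the group means of same-numbered libraries correlated above 0.1 in 4 of 7 brush and EpCAM+ pairs. The same held for 1 of 4 brush and CD45+ pairs and 1 of 4 EpCAM+ and CD45+ pairs. A library correlated best with its own number in 0, 0 and 1 cases of these comparisons. Such correlations cannot decide whether the numbers pair the libraries. The counts of related genes called were within 1.5 times the reported ones in all alternatives. Depth limits Dgki outside brush cells, Dgkg and CD45+ replicate 1.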
